A study of Mus musculus with 60 samples.

Results

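The 8 genes described here encode receptors and bridging proteins through which phagocytes recognise and take up dying cells, and they were followed across brain regions, time of day and tumor status. They were taken by symbol from the 770 genes of a nanoString nCounter neuroinflammation panel, and all 8 had a value in every sample. The members are the receptor kinases Mertk and Axl, the bridging proteins Pros1 and Mfge8, the scavenger receptors Cd36 and Msr1, the integrin subunit Itgav and the exchange factor Dock1. Other genes of the pathway are described only as far as the panel holds them.

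RNA was measured in hippocampus, hypothalamus and brain stem of 20 female Balb/C mice, 13 weeks of age. Of these, 10 tumor-bearing mice had received 67NR cells in their mammary glands, and the other 10 had received vehicle (DMEM medium). The 67NR cells, which grow as mammary tumors but do not metastasise, all trace back to 1 tumor, so the tumor-bearing groups stand for 1 line. Tissue was collected on day 25 after injection, either at mid-dark (ZT19) or at mid-light (ZT7) of a cycle with 14 h of light and 10 h of dark, after perfusion with saline. ZT, zeitgeber time, counts hours from lights on. The 4 groups of 5 mice were thus tumor-bearing or vehicle injected, at mid-dark or mid-light, and each mouse gave all 3 regions. All mice shared strain, sex, light schedule and an injection, and no uninjected mice were included. Values were available for 56 of the 60 listed samples, 20 from hippocampus, 17 from hypothalamus and 19 from brain stem. The hypothalamus of vehicle injected mice was the smallest set, with 3 samples at mid-dark and 4 at mid-light, since no values for mice 10, 12 and 32 were analysed there, and the brain stem of mouse 8 was not analysed either.

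Efferocytosis is the clearance of dying cells by phagocytes, which in the brain are mainly microglia and, to a lesser degree, astrocytes. Phosphatidylserine exposed on a dying cell is bound by bridging proteins, which in turn engage receptors on the phagocyte, and the receptors signal through adaptors that drive engulfment. Mertk and Axl belong to the TAM family of receptor tyrosine kinases. The family recognises phosphatidylserine through the ligands protein S, encoded by Pros1, and Gas6, but not every receptor of the family responds to both. MFG-E8, encoded by Mfge8, links phosphatidylserine to integrins that contain the alpha v subunit, encoded by Itgav. Gas6 and Tyro3, the remaining TAM ligand and receptor, were not analysed here.

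All values are log2 expression values as deposited, already normalized between samples, and a difference of 1 is a doubling. The sample medians lay between 8.07 and 8.09. The depth of each sample is unknown, because the table holds no counts. Precision depends on the number of mice, and the noise of low values could not be measured separately. Msr1 had the lowest means of the members, at 4.39 to 4.81. Region labels fit their markers, with Tbr1, Slc17a7 and Nrgn highest in hippocampus, Dlx1, Dlx2 and Slc17a6 in hypothalamus, and Nefl and Mobp in brain stem. The samples of 2 regions fell into separate ranges of a marker. In brain stem, Nrgn, a gene of forebrain neurons, was 7.49 to 8.43 in 10 samples and 9.79 to 10.3 in 9. In hippocampus, Ttr, a gene of choroid plexus, was 5.36 to 7.78 in 5 samples and 11.5 to 14.7 in 15. RNA purity, an absorbance ratio given in the labels, was under 1.8 in 3 of 5 brain stem samples of tumor-bearing mice at mid-dark. It was also under 1.8 in 1 sample in each of the brain stem groups at mid-light, and in 1 hippocampal sample. The labels give a second absorbance ratio, which was not used and was lowest in hypothalamic samples of tumor-bearing mice. Because bulk tissue was measured, fewer cells of a type and less RNA per cell cannot be told apart. Each gene has its own probe, so the level of one gene was never set against that of another.

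Each member differed between at least 1 pair of regions, and Mertk and Mfge8 stood highest in hippocampus while Axl, Itgav and Dock1 stood highest in brain stem. The samples of the 3 regions came from the same mice, and the comparison used 1 linear model over 12 group means with the mouse as a random block (limma, Benjamini-Hochberg adjustment over all genes tested, called at an adjusted p under 0.05). In hippocampus against hypothalamus 6 of 8 members passed, 2 higher and 4 lower in hippocampus, where 71.7% of all genes passed. In hippocampus against brain stem 7 of 8 passed, 2 higher and 5 lower, where 76.6% of all genes passed. In hypothalamus against brain stem 7 of 8 passed, 4 higher and 3 lower, where 66.5% of all genes passed. Most of the panel differed between regions, and the members' shares were near these. The median difference of the members was -0.17, -0.32 and -0.02 in the 3 comparisons, in that order, and that of all genes was -0.05, -0.03 and 0.02.

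**Figure D1:**
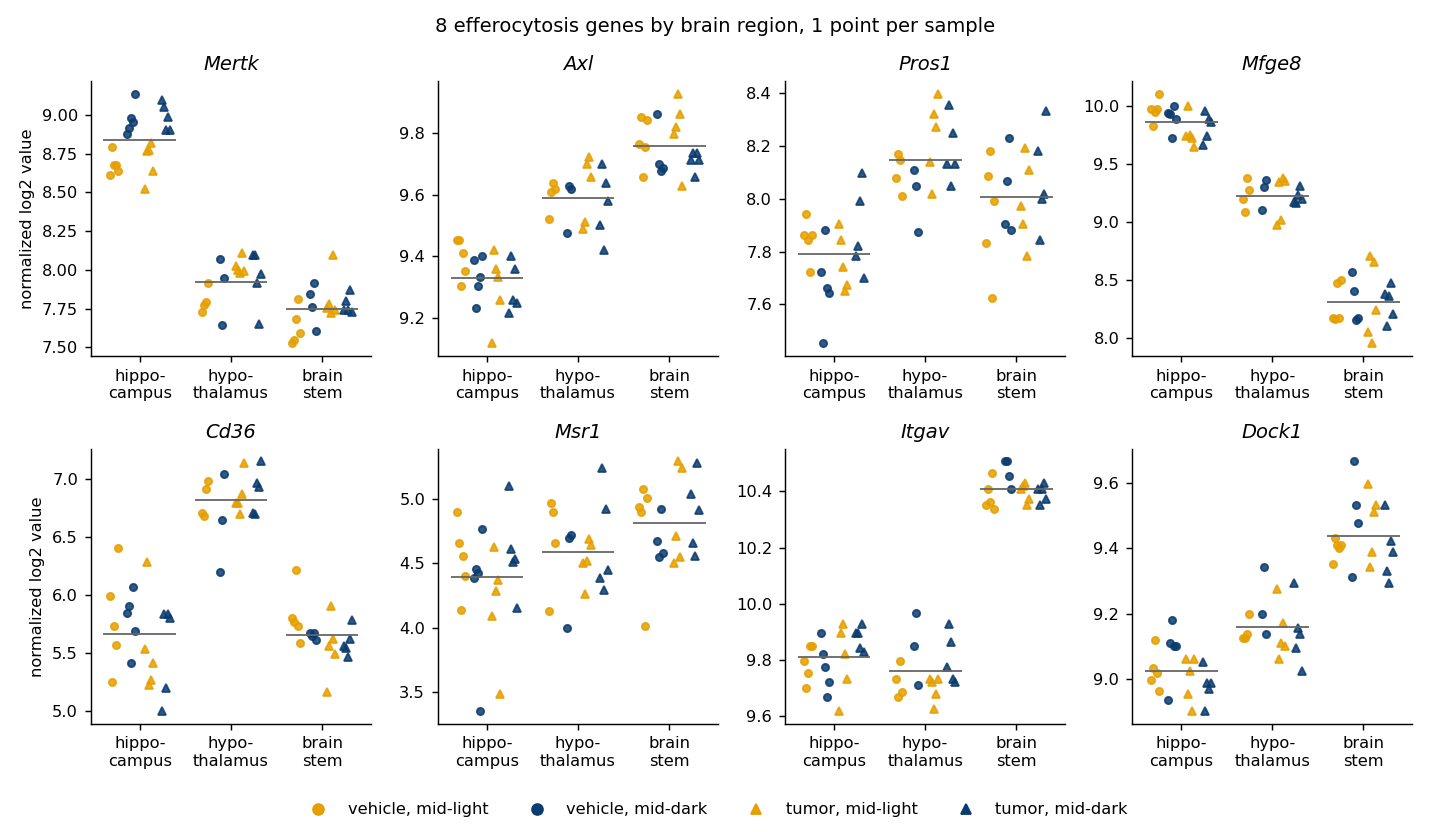
Log2 expression value of each member in every sample, by region. Each panel is 1 gene with its own y axis, circles are vehicle injected and triangles tumor-bearing mice, orange is mid-light and blue mid-dark, and the grey line is the mean of the region. Mertk and Mfge8 lie highest in hippocampus without overlap with the other regions, Cd36 lies highest in hypothalamus, and Itgav lies highest in brain stem.

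Mertk, the TAM receptor most closely tied to clearance of dying cells by resident phagocytes, had a mean log2 value of 8.84 ± 0.17 (SD, n = 20) in hippocampus, 7.92 ± 0.15 (n = 17) in hypothalamus and 7.75 ± 0.13 (n = 19) in brain stem. Its lowest, median and highest values were 8.52, 8.85 and 9.14 in hippocampus. They were 7.64, 7.97 and 8.11 in hypothalamus, against 7.53, 7.74 and 8.10 for brain stem. Every hippocampal sample lay above every sample of the other regions, and those of hypothalamus and brain stem overlapped over most of their range. The hippocampus exceeded the hypothalamus by 0.92 (95% CI 0.84 to 1.00, adjusted p = 1.23e-26), a 1.89-fold level, and the brain stem by 1.08 (1.01 to 1.16, adjusted p = 1.33e-30), a 2.12-fold level. It was higher in hippocampus in 17 of 17 mice against hypothalamus and in 19 of 19 against brain stem.

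Axl, the TAM receptor more often linked to inflammatory states, had the opposite order. Its mean log2 value was 9.33 ± 0.09 (SD, n = 20) in hippocampus, 9.59 ± 0.09 (n = 17) in hypothalamus and 9.76 ± 0.08 (n = 19) in brain stem. The hippocampal range of 9.12 to 9.45 lay below the brain stem range of 9.63 to 9.93, while the hypothalamic range of 9.42 to 9.72 overlapped both. All 3 differences passed, and that of hippocampus against brain stem was -0.43 (95% CI -0.48 to -0.37, adjusted p = 1.46e-19). Axl was lower in hippocampus than in brain stem in 19 of 19 mice and lower in hippocampus than in hypothalamus in 17 of 17.

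Of the bridging proteins, Pros1 was highest in hypothalamus and Mfge8 in hippocampus. Pros1, which encodes the plasma anticoagulant protein S and TAM ligand, had means of 7.79 ± 0.15 (SD, n = 20) in hippocampus, 8.15 ± 0.14 (n = 17) in hypothalamus and 8.01 ± 0.18 (n = 19) in brain stem, with overlap between all regions. It was lower in hippocampus than in hypothalamus by a difference of -0.34 (95% CI -0.44 to -0.25) and than in brain stem by -0.22 (-0.31 to -0.12), and it was 0.13 higher in hypothalamus than in brain stem (0.03 to 0.23, adjusted p = 0.0197). Mfge8 had means of 9.87 ± 0.13, 9.23 ± 0.13 and 8.31 ± 0.21 in the same order of regions. Its lowest, median and highest values were 9.65, 9.89 and 10.1 in hippocampus, then 8.98, 9.23 and 9.38 for hypothalamus and 7.95, 8.24 and 8.71 for brain stem, so that the 3 regions were fully separate. The difference of hippocampus against brain stem was 1.56 (95% CI 1.46 to 1.66, adjusted p = 1.96e-31), a 2.94-fold level, and hypothalamus exceeded brain stem in 16 of 16 mice. Within brain stem, Mfge8 was 8.05 to 8.36 (median 8.17) in the 10 samples with lower Nrgn and 7.95 to 8.71 (median 8.47) in the 9 with higher Nrgn.

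Of the scavenger receptors, Cd36 was highest in hypothalamus and Msr1 differed between hippocampus and brain stem. Cd36, a receptor for oxidised lipids and thrombospondin that macrophages and endothelial cells carry, had means of 5.66 ± 0.38 (SD, n = 20) in hippocampus, 6.82 ± 0.23 (n = 17) in hypothalamus and 5.65 ± 0.21 (n = 19) in brain stem. Hypothalamus exceeded hippocampus in 17 of 17 mice and brain stem in 16 of 16. The difference of hypothalamus against brain stem was 1.14 (95% CI 0.96 to 1.32, adjusted p = 1.56e-15), a 2.20-fold level, and that of hippocampus against hypothalamus was -1.13 (-1.31 to -0.95). Between hippocampus and brain stem the difference was 0.01 (-0.16 to 0.18, adjusted p = 0.932). Msr1, the class A macrophage scavenger receptor, had means of 4.39 ± 0.42, 4.59 ± 0.32 and 4.81 ± 0.32 in the same order, and its ranges overlapped throughout. Hippocampus was below brain stem by a difference of -0.42 (-0.64 to -0.19, adjusted p = 0.000908), and neither of the other region differences of Msr1 passed.

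Itgav and Dock1 were both highest in brain stem. Itgav, the alpha v subunit that MFG-E8 engages, had means of 9.81 ± 0.09 (SD, n = 20) in hippocampus, 9.76 ± 0.09 (n = 17) in hypothalamus and 10.4 ± 0.05 (n = 19) in brain stem. The lowest brain stem value, 10.3, lay above the highest value of the other regions, 9.97, and the difference was -0.60 (95% CI -0.65 to -0.55) for hippocampus and -0.65 (-0.70 to -0.60) for hypothalamus. Hippocampus and hypothalamus differed by 0.05 (-0.00347 to 0.09, adjusted p = 0.0906), which did not pass. Dock1, an exchange factor that activates Rac during engulfment, had means of 9.02 ± 0.08, 9.16 ± 0.08 and 9.44 ± 0.10 in the same order. Its differences were -0.15 between hippocampus and hypothalamus, -0.42 between hippocampus and brain stem and -0.27 between hypothalamus and brain stem, and all passed.

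Values of every sample of one region lay above or below every sample of the other for 2 of 8 members in hippocampus against hypothalamus (Mertk, Mfge8; 19.7% of all genes), 5 of 8 in hippocampus against brain stem (Mertk, Axl, Mfge8, Itgav, Dock1; 26.2%) and 2 of 8 in hypothalamus against brain stem (Mfge8, Itgav; 15.6%). The smallest region differences depended on the scaling. Subtracting the mean of the 13 reference genes of the panel moved the median difference of all genes by 0.11 for hippocampus against hypothalamus and by -0.13 for hypothalamus against brain stem. Relative to that scale Pros1 no longer differed in the same direction between hypothalamus and brain stem (-0.01, adjusted p = 0.919), and the Mertk difference there (0.03, adjusted p = 0.547) and the Dock1 difference of hippocampus against hypothalamus (-0.04, adjusted p = 0.321) did not pass.

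Time of day gave 1 called difference among the members. Mertk rose at mid-dark in hippocampus, by 0.29 on the log2 scale, in both tumor-bearing and vehicle injected mice, and no other member passed in any single region. Dark against light was tested in each region with the tumor groups averaged (limma on 4 group means per region). In hippocampus 1 of 8 members passed, higher at mid-dark, where 5.59% of all genes passed. None of the 8 passed in hypothalamus, where 2.34% of all genes did, nor in brain stem, where 4.94% did. At an unadjusted limma p under 0.05 the counts were 1 of 8 in hippocampus (Mertk), 1 in hypothalamus (Itgav) and 0 in brain stem, where 18.7%, 13.2% and 15.9% of all genes passed. The members' median absolute difference was 0.03, 0.04 and 0.05 in the same order of regions, against 0.08, 0.07 and 0.07 for all genes.

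In hippocampus of vehicle injected mice the mid-dark samples had Mertk values of 8.88, 8.92, 8.95, 8.98 and 9.14, and the mid-light samples had 8.61, 8.64, 8.68, 8.68 and 8.79. In tumor-bearing mice the mid-dark samples had 8.90, 8.90, 8.99, 9.05 and 9.09, and the mid-light samples had 8.52, 8.64, 8.77, 8.78 and 8.82. The lowest of the 10 mid-dark samples lay above the highest of the 10 mid-light samples, a separation by phase that 0.519% of all genes (4 of 770) showed in this region. The dark minus light difference was 0.29 (SE 0.05, 95% CI 0.19 to 0.39, adjusted p = 0.000865), a 1.22-fold level (1.14 to 1.31). An exact permutation test, two-sided, with phase permuted within tumor status gave p = 3.15e-05, the smallest value that its 63504 assignments allow.

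**Figure D2:**
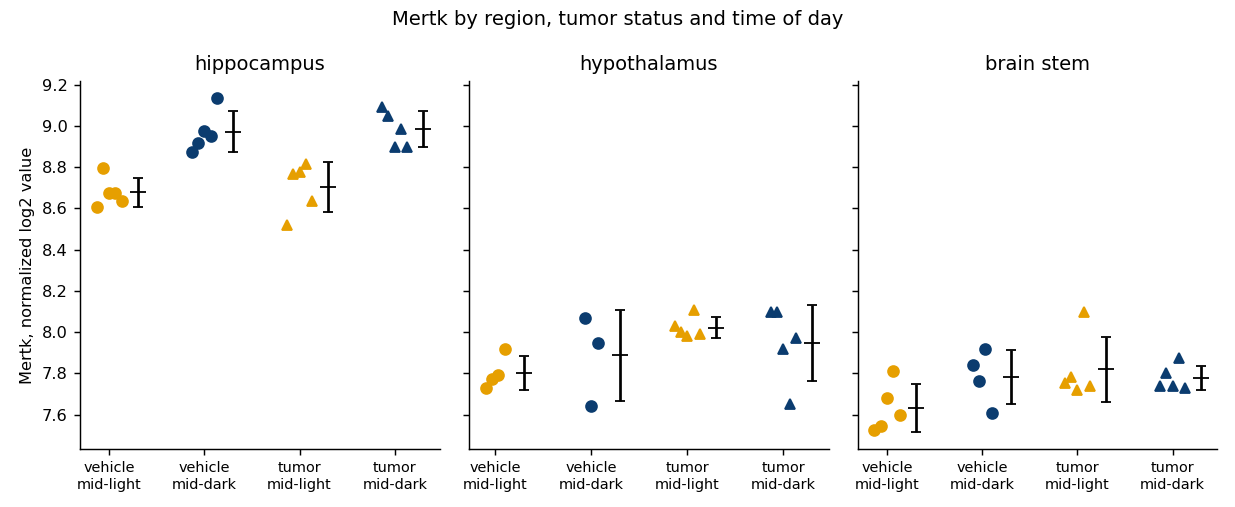
Log2 expression value of Mertk in each sample of the 4 groups in the 3 regions. Points are samples and bars are the group mean ± SD. In hippocampus the mid-dark samples (8.88 to 9.14) all lie above the mid-light samples (8.52 to 8.82), in vehicle injected and tumor-bearing mice alike, and in the other regions the phases overlap.

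The difference was measured in each tumor group on its own. It was 0.29 in vehicle injected mice (95% CI 0.15 to 0.43, adjusted p = 0.0187), where 1 of 8 members and 2.34% of all genes passed, and 0.28 in tumor-bearing mice (0.14 to 0.42, adjusted p = 0.043), where 1 of 8 members and 1.04% of all genes passed. The difference between them was -0.01 (-0.21 to 0.19, adjusted p = 0.977), and 0% of all genes passed for this interaction in hippocampus. With 5 mice a group, the calls within 1 tumor status were less stable than the averaged one. The call in vehicle injected mice was lost without mouse 2, 30 or 32 (adjusted p = 0.0626, 0.058 and 0.0735), and that in tumor-bearing mice was lost without any 1 of 16 of the 20 mice (adjusted p up to 0.161), all but mice 6, 11, 13 and 32.

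In hypothalamus the lowest, median and highest Mertk values were 7.64, 7.96 and 8.10 at mid-dark (n = 8) and 7.73, 7.98 and 8.11 at mid-light (n = 9). In brain stem they were 7.61, 7.76 and 7.92 at mid-dark (n = 9) and 7.53, 7.73 and 8.10 at mid-light (n = 10). The phases overlapped in both regions. The dark minus light difference was 0.01 in hypothalamus (95% CI -0.14 to 0.15, adjusted p = 0.984) and 0.05 in brain stem (-0.07 to 0.17, adjusted p = 0.754). Whether the hippocampal difference exceeded those of the other regions was tested directly. It was 0.28 larger than in hypothalamus (0.13 to 0.44, adjusted p = 0.103) and 0.24 larger than in brain stem (0.09 to 0.38, adjusted p = 0.266), so the call in 1 region was not shown to differ between regions. None of the 8 members passed for these differences, where 0.39% of all genes passed for hippocampus against hypothalamus, 0.13% for hippocampus against brain stem and 0% for hypothalamus against brain stem. At an unadjusted limma p under 0.05, 1, 1 and 0 members passed, in that order, Mertk in both cases, beside 8.83%, 5.84% and 3.51% of all genes. Without mouse 4 the dark minus light difference of Mertk was 0.34 larger in hippocampus than in hypothalamus, and this passed (adjusted p = 0.0164).

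Averaged over the 3 regions in the model with the mouse as block, Mertk was 0.11 higher at mid-dark (95% CI 0.04 to 0.19, adjusted p = 0.0319), 1 of 8 members where 13.5% of all genes passed. This average contains the hippocampal difference already given. It was lost without mouse 2, 3, 4, 7, 28 or 29 (adjusted p = 0.0616 to 0.0821) and without either set of brain stem samples divided by their Nrgn value (adjusted p = 0.0702 and 0.068).

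The 250 bases before the annotated start of a gene are shown for the TAM receptors, since Mertk had the called time-of-day difference and Axl, its nearest relative here, had none. The sequences are from RefSeq (GRCm38.p6, the reference mouse and not the Balb/C strain), 5′ to 3′ on the strand of the gene, at chr2:128698665-128698914 on the plus strand for Mertk and chr7:25788734-25788983 on the minus strand for Axl. Capitals mark the GC box letters GGGCGG on either strand.
Mertk: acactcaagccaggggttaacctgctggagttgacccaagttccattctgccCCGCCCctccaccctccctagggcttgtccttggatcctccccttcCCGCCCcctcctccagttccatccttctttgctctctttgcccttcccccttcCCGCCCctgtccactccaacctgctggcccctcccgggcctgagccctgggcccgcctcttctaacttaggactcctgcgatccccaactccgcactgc
Axl: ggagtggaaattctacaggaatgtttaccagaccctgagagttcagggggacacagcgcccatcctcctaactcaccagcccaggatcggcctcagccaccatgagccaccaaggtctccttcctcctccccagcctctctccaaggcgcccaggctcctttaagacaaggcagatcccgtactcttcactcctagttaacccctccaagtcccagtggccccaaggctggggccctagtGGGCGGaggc
Such windows were found for 7 of the 8 members. The letters searched on both strands were CACGTG (E-box), TTATGTAA (D-box), AGGTCA (the core of a ROR element) and GGGCGG (GC box). Matches of different motifs did not overlap, and in Pros1 and in Dock1 1 pair of GC boxes did. Among 32851 RefSeq windows of this length, 6.02% hold CACGTG, 0.819% TTATGTAA, 14% AGGTCA and 32.7% GGGCGG. Neither CACGTG nor TTATGTAA was in any of the 7 windows, and AGGTCA was in that of Cd36 alone. GGGCGG occurred 3 times in the Mertk window, 1 time in that of Axl, 5 times in Pros1, 4 in Mfge8, 3 in Dock1, 2 in Cd36 and 0 in Itgav. These are matches of letters in a short window, not sites shown to be bound.

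The other 7 members had dark minus light differences between -0.03 and 0.08 in hippocampus. Axl was -0.03 (95% CI -0.12 to 0.06), and the bridging proteins Pros1 and Mfge8 were -0.03 (-0.15 to 0.10) and -0.01 (-0.12 to 0.10). The intervals of the scavenger receptors were wider, -0.35 to 0.34 for Cd36 and -0.29 to 0.44 for Msr1, so changes of the size seen for Mertk were not detectable for these genes. Itgav was the nearest to a difference in another region. In hypothalamus its mid-dark samples had a lowest, median and highest value of 9.71, 9.81 and 9.97, its mid-light samples had 9.63, 9.72 and 9.80, with overlap, and the difference was 0.11 (0.02 to 0.21, adjusted p = 0.291). The exact permutation test, two-sided, gave p = 0.0113 for it, 1 of 4 under 0.05 among 48 such tests of the 8 members. Over the 3 regions Itgav was 0.06 higher at mid-dark (adjusted p = 0.0616), and it passed when samples of the same mouse were not linked (adjusted p = 0.0298) or without mouse 5, 9, 22, 28 or 32 (adjusted p = 0.0253 to 0.0499).

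Within 1 tumor status no member passed in the other regions. In hypothalamus 0 of 8 passed in vehicle injected mice (0.26% of all genes) and 0 of 8 in tumor-bearing mice (1.04%). In brain stem 0 of 8 passed in vehicle injected mice (1.3%) and 0 of 8 in tumor-bearing mice (0.78%). At an unadjusted limma p under 0.05 the count was 0 in all 4 comparisons, where 6.88%, 9.74%, 10.0% and 10.1% of all genes passed, and by an ordinary, unmoderated test it was 1 in brain stem of vehicle injected mice and 0 in the rest. The interaction of tumor and phase had 0 of 8 members and 0% of all genes in hypothalamus and 0 of 8 and 0% in brain stem, and at an unadjusted limma p under 0.05 it had 0 members in each, beside 2.60% and 3.64% of all genes.

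**Figure D3:**
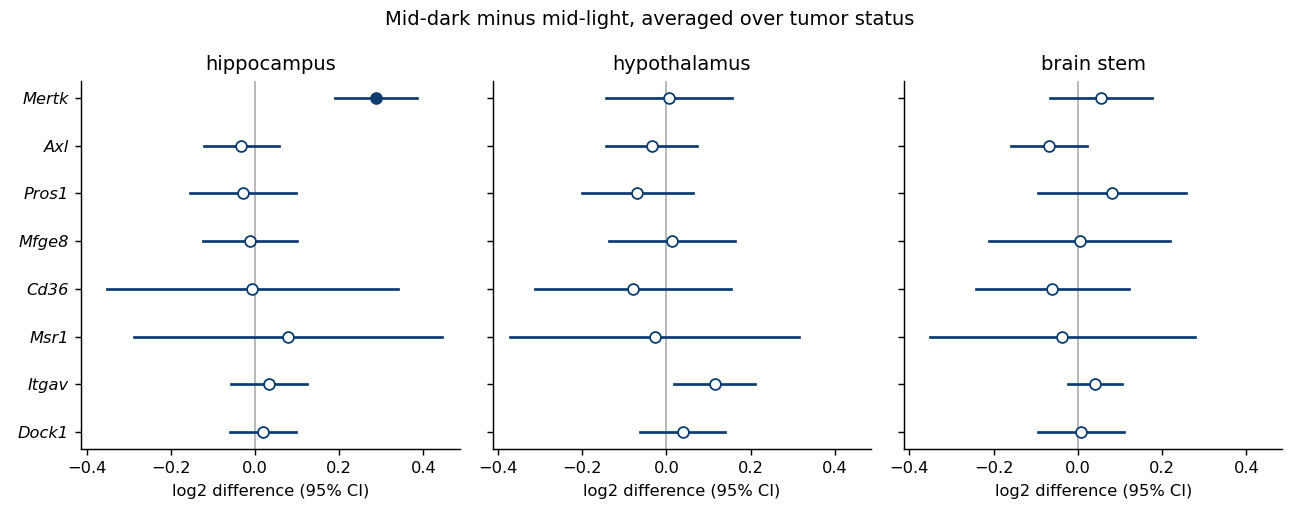
Difference in log2 value, mid-dark minus mid-light with the tumor groups averaged, for the 8 members in each region. Bars are 95% confidence intervals, filled symbols passed an adjusted p of 0.05 (limma) and open symbols did not. Mertk in hippocampus, at 0.29, is the filled symbol.

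Cell type markers were measured beside the Mertk difference in hippocampus. Of 8 microglial markers 0 passed between dark and light, and their summed level on the log2 scale was 12.3 to 12.6 at mid-dark, against 12.4 to 12.6 at mid-light. Of 8 astrocyte markers 0 passed, with a summed level of 14.7 to 14.9 at mid-dark and 14.6 to 14.9 at mid-light, and of 8 neuronal markers 0 passed. Of 10 oligodendrocyte markers 4 fell at mid-dark, named here after their values were seen, with differences of -0.46 for Cnp, -0.47 for Mag, -0.54 for Mog and -1.07 for Opalin. The summed level of the oligodendrocyte list was 14.5 to 15.6 at mid-dark and 15.2 to 15.8 at mid-light. Of 7 endothelial markers 1 rose, Cldn5, by 0.29, and their summed level was 10.9 to 11.4 at mid-dark and 11.0 to 11.3 at mid-light. These marker counts stand beside the 5.59% of all genes that passed between dark and light in hippocampus. The part of oligodendrocyte and endothelial content in the Mertk difference was not tested. Without the 5 hippocampal samples of low Ttr, Mertk still passed in the averaged comparison, and RNA purity was 1.79 to 2.03 at mid-dark and 1.93 to 2.02 at mid-light.

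Between tumor-bearing and vehicle injected mice no member passed in any region or phase. With phases averaged, 0 of 8 passed in hippocampus, where 0.52% of all genes did, 0 of 8 in hypothalamus, where 0.26% did, and 0 of 8 in brain stem, where 1.04% did. At mid-dark alone 0 of 8 passed in each region, and the shares of all genes were 0.13% for hippocampus, 0% for hypothalamus and 0.26% for brain stem. At mid-light alone it was again 0 of 8 in each region, with 0.13%, 0% and 0.78% of all genes in the same order. Over the 3 regions 0 of 8 passed, where 2.34% of all genes did. At an unadjusted limma p under 0.05 the counts with phases averaged were 1, 1 and 0 of 8 in the same order, where 6.37%, 7.14% and 6.50% of all genes passed. Those of mid-dark were 1, 0 and 0 (6.63%, 4.81% and 7.28% of all genes), those of mid-light 1, 1 and 2 (6.89%, 5.19% and 4.81%), and that over the 3 regions 1 of 8 (9.48%). By region the members' median difference was -0.05, 0.01 and 0.00, and that of all genes was -0.01, 0.00 and -0.01.

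Mfge8 was the member nearest to a call in hippocampus. Its lowest, median and highest values were 9.65, 9.75 and 10.0 in tumor-bearing and 9.72, 9.94 and 10.1 in vehicle injected mice, with much overlap. The tumor minus vehicle difference was -0.13 (95% CI -0.25 to -0.02, adjusted p = 0.63, exact permutation test, two-sided, p = 0.0215), and at mid-light alone it was -0.20 (adjusted p = 0.502). The hypothalamic difference was -0.03 (-0.18 to 0.12) and the brain stem difference 0.00 (-0.21 to 0.22).

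Pros1 in hypothalamus was 8.02, 8.19 and 8.40 (lowest, median, highest) in tumor-bearing and 7.87, 8.08 and 8.17 in vehicle injected mice. The difference was 0.15 (95% CI 0.02 to 0.28, adjusted p = 0.529, exact permutation test, two-sided, p = 0.0234). In hippocampus at mid-dark Pros1 was 7.70, 7.78, 7.82, 7.99 and 8.10 in tumor-bearing and 7.45, 7.64, 7.66, 7.72 and 7.88 in vehicle injected mice. The ranges overlapped there, and the mid-dark difference was 0.21 (adjusted p = 0.634) and the mid-light difference -0.08, with an interaction of 0.29 (0.04 to 0.54, adjusted p = 0.662).

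Mertk at mid-light was 7.98, 7.99, 8.00, 8.03 and 8.11 in hypothalamus of tumor-bearing mice and 7.73, 7.77, 7.79 and 7.92 in vehicle injected mice. The groups did not overlap, as was so for 1.43% of all genes here (11 of 770), and the difference of 0.22 (95% CI 0.02 to 0.42) did not pass (adjusted p = 0.907). In brain stem at mid-light the difference was 0.19 (0.02 to 0.35, adjusted p = 0.837), falling to 0.12 without mouse 13, and over the 3 regions 0.08 (0.01 to 0.16, adjusted p = 0.376). In hippocampus, where the time-of-day difference lay, the tumor minus vehicle difference was 0.02 (-0.08 to 0.12). The tumor minus vehicle difference of Cd36 did not pass anywhere and had no common sign, at -0.25 in hippocampus (-0.59 to 0.10), -0.16 in brain stem (-0.34 to 0.02) and 0.15 in hypothalamus (-0.08 to 0.38). At mid-light in brain stem it was -0.27 (-0.52 to -0.02, adjusted p = 0.909), and -0.17 without mouse 10 or without mouse 1. In hypothalamus it was 0.04 without mouse 4 and 0.25 without mouse 28.

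Msr1 in hippocampus had differences of opposite sign at the 2 phases, 0.31 at mid-dark and -0.36 at mid-light. The interaction was 0.67 (95% CI -0.06 to 1.40, adjusted p = 0.696). The lowest of all Msr1 samples, at 3.35, belonged to vehicle injected mouse 28 at mid-dark, and without it the mid-dark difference was 0.07 and the interaction 0.43. Without mouse 29 the mid-light difference was -0.19. Axl, Itgav and Dock1 had tumor minus vehicle differences between -0.07 and 0.06 over the 3 regions taken singly and with intervals that lay within -0.16 and 0.15.

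**Figure D4:**
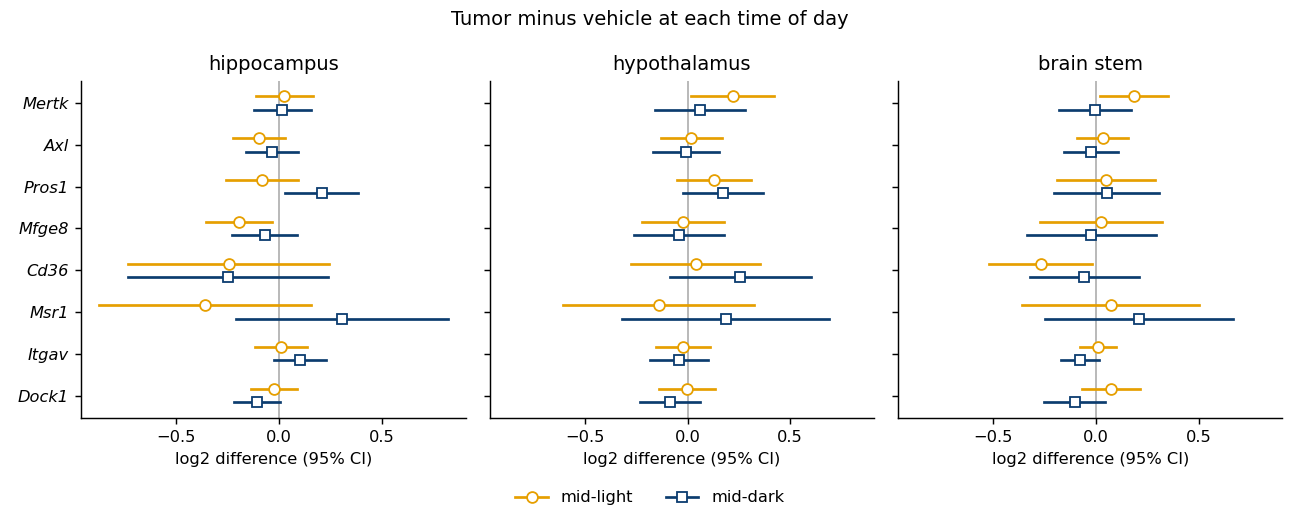
Difference in log2 value, tumor-bearing minus vehicle injected at each time of day, for the 8 members in each region. Orange circles are mid-light and blue squares are mid-dark. Bars are 95% confidence intervals and open symbols did not pass an adjusted p of 0.05 (limma). All symbols are open.

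Of 67 further genes of the pathway in 6 lists, 36 were on the panel. They were 4 of 6 find-me and restraint signals, 6 of 18 other receptors of dying cells, 3 of 5 integrin partners, 9 of 12 other bridging and opsonizing proteins, 7 of 15 engulfment signalling genes and 7 of 11 genes for handling cargo after uptake. Between regions 23 of the 36 passed for hippocampus against hypothalamus (12 higher and 11 lower), 27 for hippocampus against brain stem (16 and 11) and 21 for hypothalamus against brain stem (13 and 8), which stand beside the 71.7%, 76.6% and 66.5% of all genes that passed and are no more than these shares. Cx3cl1, the find-me chemokine of neurons, and Trem2, a lipid-sensing receptor of microglia, both named here after their values were seen, were like Mertk higher in hippocampus than in brain stem, by 1.05 and 0.60. Between dark and light in hippocampus 1 of 36 rose and 1 fell, which is near the 5.59% of all genes that passed. Calr, which encodes the chaperone calreticulin, an eat-me signal when it stands on the cell surface, rose by 0.49 at mid-dark (adjusted p = 0.000217). Apoe, a lipid carrier that also opsonizes dying cells, fell by 0.18 (adjusted p = 0.0244). Both belong to the bridging and opsonizing list, and none of the other 5 lists had a called gene, with median differences from -0.13 for the 3 integrin partners to 0.08 for the 6 other receptors.

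The mid-dark samples of hippocampus had a lowest, median and highest Calr value of 13.8, 14.0 and 14.4, and the mid-light samples had 13.4, 13.5 and 13.8, touching at 13.8. It also rose in brain stem, by 0.38 (adjusted p = 5.28e-05), and in hypothalamus, by 0.18 (adjusted p = 0.0317), and it was the 1 gene of the 36 called in these regions. There 4.94% and 2.34% of all genes passed, in that order. The Calr difference in hippocampus was 0.32 larger than in hypothalamus (adjusted p = 0.0129), but it did not pass with reference genes subtracted (adjusted p = 0.351), without mouse 8, 28 or 29 (0.0515, 0.0656 and 0.0617) or without the samples of low Ttr (0.112). The brain stem call was lost without either set of samples divided by Nrgn (adjusted p = 0.12 and 0.0587), and the hypothalamic call without mouse 2, 3, 4, 6, 19, 22, 28 or 30 (adjusted p = 0.0509 to 0.101), with reference genes subtracted (0.114) or with the purity ratio as a covariate (0.0571). Apoe was 13.9 to 14.2 at mid-dark and 14.0 to 14.2 at mid-light, and it did not pass without mouse 5 (adjusted p = 0.0525) or without the samples of low Ttr (adjusted p = 0.0777). Calr and Apoe lie high on the scale, where equal values recur after normalization, and their median at mid-dark was 14.0 for each. Whether the hippocampal differences of Calr and Apoe were separate was not tested. In vehicle injected mice alone Apoe passed, with differences of -0.38 to -0.30 over the alternatives, but not without the samples of low Ttr (adjusted p = 0.11). In tumor-bearing mice alone it did not pass.

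Between tumor-bearing and vehicle injected mice Tgm2, a transglutaminase that acts with MFG-E8 and integrins in uptake, rose in brain stem by 0.41 (adjusted p = 0.00936). It was 1 of the 36, where 1.04% of all genes passed. Its lowest, median and highest values were 7.55, 7.80 and 8.03 in tumor-bearing and 7.17, 7.38 and 7.63 in vehicle injected mice, with slight overlap. Over the 3 regions it rose by 0.35 (adjusted p = 0.00191), where 2.34% of all genes passed, a call lost without the brain stem samples of higher Nrgn (0.30, adjusted p = 0.0618). In hippocampus and hypothalamus taken singly none of the 36 passed with phases averaged, where 0.52% and 0.26% of all genes did. The Tgm2 means of tumor-bearing and vehicle injected mice were 7.54 and 7.17 in hippocampus and 7.49 and 7.23 in hypothalamus. Tgm2 was not tested for a difference between regions in this rise. In brain stem it did not pass with the purity ratio as a covariate (0.31, adjusted p = 0.104), among samples with a ratio of at least 1.8 (0.33, adjusted p = 0.15), or without the samples of higher Nrgn (0.24, adjusted p = 0.683) or of lower Nrgn (0.61, adjusted p = 0.0604).

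With the mean of each region removed, each member was set beside all other genes over the 56 samples, and the 3 genes with the highest Pearson correlation were taken. These values describe 56 samples of 20 mice, in which each mouse counts up to 3 times and phase and tumor status are shared. For Mertk they were Fkbp5 (r = 0.60), a glucocorticoid-induced co-chaperone, Cables1 (0.53) and Rapgef3 (0.49). With group means removed as well they were 0.47, 0.24 and 0.42. For Axl they were Egfr (0.68), Rps10 (0.58) and Csf1r (0.55), and for Pros1 they were Cp (0.60), Srgn (0.59) and Ddx58 (0.56). For Mfge8 they were Nrgn (0.56), Ldha (0.47) and Hrk (0.45), and Nrgn is the gene that divided the brain stem samples. For the remaining members the highest values were Cd36 with S100a10 (0.53), Msr1 with Serping1 (0.44), Itgav with Igf1r (0.46) and Dock1 with Myrf (0.54). Among the 28 pairs of members r had a median of 0.05 and ran from -0.26 for Axl with Dock1 to 0.44 for Mfge8 with Cd36, followed by 0.43 for Pros1 with Msr1. Mertk and Axl, from the same receptor family, did not have each other among these genes.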

How the data were processed

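RNA of 3 brain regions was hybridised to barcoded nCounter probes, which are counted without amplification. The authors subtracted negative controls, normalized on positive controls and CodeSet content in nSolver and quantile normalized in Partek, and the deposited values are log2 expression values, from -0.37 to 15.4. Samples that were outliers by the raw data were excluded before normalization, per the labels. Quantile normalization gives samples nearly the same set of values, so equal values recur and a shift common to all genes cannot be seen. A blank line of the table was left out, and a gene with 1 value throughout a region was not tested there (1 in hippocampus, 1 in brain stem).

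Groups and mouse numbers came from the labels. Differences were fitted with limma 3.58.1 in R 4.3.3 by region (4 group means) or over the 3 regions (12 group means, mouse as a random block, within-mouse correlation 0.14), with Benjamini-Hochberg adjustment over all genes and a threshold of 0.05. The same mouse number marks the same animal in each region, so the block is a true pairing. The p values of region comparisons rest on the spread of samples around their group means, allowing for the correlation between samples of the same mouse. Exact permutation tests, two-sided, were run for single members. The scripts were tested on simulated data. Intervals are at 95%. Plots were drawn with Python 3.11.15, numpy 2.4.6 and matplotlib 3.10.9.

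The members and lists were chosen with earlier results of these data known. The text names all 8 members, the pathway genes that passed for phase or tumor status, the 3 genes most like each member (for 4 members only the first is printed) and markers used to check region labels. Alternatives were an ordinary test with and without adjustment, robust moderation, a mean log2 value of at least 5, 3 other scalings, purity as covariate or filter, only the groups compared, other blocks and leaving out each mouse. Another 3, leaving out samples by their Nrgn or Ttr value, were chosen after seeing the data. Body, spleen and tumor masses in the labels were not used.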

Additional observations from a re-analysis of the deposited data

Results flagged for a closer look

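Samples that stood apart from their group were found in 6 of the 88 groups of 4 or 5 samples of the members, 6.82%, where chance gives about 1 in 20. In each the distance of the highest or lowest sample to its nearest neighbour was most of the range of the group. In brain stem Mertk was 8.10 in 1 tumor-bearing mouse at mid-light, where the other 4 had 7.72 to 7.78. Axl in brain stem was 9.66 in 1 tumor-bearing mouse at mid-dark, below 9.71 to 9.73 in the others, and 9.86 in 1 vehicle injected mouse at mid-dark, above 9.68 to 9.70. Msr1 was 3.35 in 1 hippocampal sample of a vehicle injected mouse at mid-dark, below 4.39 to 4.77, and 4.01 in 1 brain stem sample of a vehicle injected mouse at mid-light, below 4.90 to 5.08. Dock1 was 9.20 in 1 hypothalamic sample of a vehicle injected mouse at mid-light, above 9.13 to 9.14.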

How the results depend on the processing

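The Mertk difference between phases in hippocampus, averaged over tumor status, passed under every alternative run, with values from 0.24 to 0.31 and adjusted p up to 0.0268, the highest with reference genes subtracted. Member results were examined singly only where the unadjusted limma p was under 0.05, which left 37, so they are a selected set. Of these 37, 24 passed adjustment. Most were region differences, with 6, 7 and 7 members in the 3 comparisons, where 71.7%, 76.6% and 66.5% of all genes passed. Among the 37, 1 changed direction: Pros1 in hypothalamus against brain stem, -0.00655 (adjusted p = 0.919) with reference genes subtracted. That result was also lost without mouse 4, 7 or 22 (adjusted p = 0.0602 to 0.0805) and without either set of brain stem samples divided by Nrgn (0.057 and 0.092). The cause was not tested.

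The count of members called between phases in hippocampus of vehicle injected mice went from 1 to 0 with reference genes subtracted, with only the groups compared and without the samples of low Ttr, and lay between 0 and 1 when each mouse was left out. In tumor-bearing mice it went from 1 to 0 under these and with the purity ratio as covariate or at least 1.8, again 0 to 1 over the mice. Over the 3 regions it went from 1 to 2 with ordinary p values, adjusted or not, and without the replicate block, and to 0 with reference genes subtracted, a purity ratio of at least 1.8 or either set of Nrgn samples left out, and was 0 to 2 over the mice. For the phase difference of hippocampus against that of hypothalamus the count went from 0 to 1 for 1 mouse left out, so 0 to 1 over the mice. With the mouse as a fixed replicate block no member call between regions changed.

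An unadjusted p under 0.05 was 1 of the study's filters, beside cutoffs on the fold change, and served there for tumor against vehicle by region and phase. Here it was taken from the ordinary test in the fitted models and applied to every comparison. It gave 1 member in place of 0 for tumor status in hippocampus (2 at mid-dark, 1 at mid-light), in hypothalamus (1 at mid-light), over the 3 regions, and in brain stem at mid-dark (2 at mid-light). It gave 1 in place of 0 for phase in hypothalamus, brain stem and vehicle injected brain stem, for the interaction in hippocampus and brain stem, and for hippocampus against hypothalamus or brain stem in the size of the phase difference. At this threshold 4.68% to 9.35% of all genes passed in those tumor comparisons, 13.1%, 16.3% and 10.7% for phase, 5.98% and 4.29% for the interaction and 8.70% and 5.84% between regions, each in the order given. The exact test gave 1 in place of 0 for tumor status in hippocampus and hypothalamus and for phase in hypothalamus.

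Counts of all genes called also moved, and the ranges in this paragraph leave out the unadjusted test and the runs without 1 mouse. Without 1 mouse some counts went beyond them. They reached 51 for phase in hippocampus, 25 for phase there in vehicle injected mice and 27 for tumor status over the 3 regions. For tumor status they reached 5 in brain stem at mid-dark and were 0 to 4 in hypothalamus. For phase in hippocampus the count went from 43 to between 11 and 48, 145 unadjusted. In hypothalamus it went from 18 to between 10 and 25 and in brain stem from 38 to between 1 and 44. For tumor status over the 3 regions it went from 18 to between 10 and 23. In vehicle injected mice the phase counts of 18, 2 and 10 (hippocampus, hypothalamus, brain stem) went to 2 to 23, 0 to 3 and 1 to 13, and in tumor-bearing mice those of 8, 8 and 6 went to 0 to 8, 5 to 12 and 1 to 12. For tumor status in brain stem 8 went to 1 to 8, 2 at mid-dark to 0 to 3 and 6 at mid-light to 0 to 6, and in hypothalamus 2 went to 1 to 3. Phase over the 3 regions went from 104 to between 67 and 143. A mean log2 value of at least 5 leaves Msr1 out. The number of mice limits what differences could be detected.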
